A study of Mus musculus with 20 samples.

Results

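The endocardial cushions are the swellings of the embryonic heart tube from which the valves and part of the septa form, and 10 genes of their signals, their transition factors and their matrix were followed here in hearts of mouse embryos that carry 3 copies of a stretch of chromosome 16. The genes were chosen by name for their roles in septation at the atrioventricular canal: Bmp2, Tgfb2, Snai2, Twist1, Sox9, Tbx2, Has2, Vcan, Hapln1 and Postn. All 10 were found in the table of 48795 genes and all 10 passed the filter on low values in every comparison. RNA sequencing was done on whole E13.5 hearts (embryonic day by the usual count from the plug), in 4 groups of 5 libraries. Dp3Tyb embryos carry an additional copy of the segment from Mir802 to Zbtb21, and Ts1Rhr embryos an additional copy of the shorter segment from Cbr1 to Fam3b. Each strain was set against wild-type (WT) embryos labelled as its own controls, which carry neither duplication, and a strain with its controls is called a cohort. Both strains model Down syndrome, and the study asked which changes go with the heart defects that were described in Dp3Tyb and not in Ts1Rhr; both were on a C57BL/6J background. All 5 Dp3Tyb libraries are described as having heart defects, but so are Ts1Rhr hearts 1 and 2, whereas Ts1Rhr hearts 3, 4 and 5 are described as having none. The 5 Ts1Rhr hearts were kept as 1 group by genotype, and results are also given without hearts 1 and 2. The labels do not give litter or sex, nor do they say whether a library holds 1 heart; a library is called a heart here, numbered in the order of deposit so that equal numbers pair no hearts, and p-values measure the spread between these libraries. Duplications of this kind are present in every cell, so no cell type is singled out by the model.

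In the atrioventricular canal the myocardium secretes Bmp2 and Tgfb2, and part of the overlying endocardium loses its contacts, switches on factors such as Snai2 and Twist1 and moves as mesenchyme into a gel of hyaluronan and proteoglycan. That gel needs Has2, which makes hyaluronan, Vcan, the proteoglycan that binds it, and Hapln1, which links them. The mesenchyme later matures into valve tissue, in which Sox9 and the matrix protein periostin, the product of Postn, are known markers. Incomplete growth or fusion of the cushions gives atrioventricular septal defects, which are frequent in Down syndrome.

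The libraries held 6600839 to 19634514 reads and 17853 to 21275 genes with at least 1 read. The share of reads from genes of the mitochondrial genome ran from 4.85% to 19.5% and was above 10% in 7 hearts: WT hearts 5 of the Dp3Tyb cohort and 1, 2 and 4 of the Ts1Rhr cohort, Dp3Tyb heart 5 and Ts1Rhr hearts 1 and 2. Of 10 cardiomyocyte markers, 10 of the endothelium and endocardium and 8 of the epicardium, all had reads in every library. Markers of lung and foregut, tissues that lie next to the heart, summed to between 19.2 and 863 normalised read counts, and 7 of the 10 were at 0 in some library. Results that move with the mitochondrial share are given with and without the 7 libraries, and those that move with the lung and foregut markers with these as a covariate. In bulk tissue, fewer cells of a type and less RNA per cell cannot be told apart.

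None of the 10 genes lies in either duplication. Only Snai2 is on chromosome 16, at chr16:14705852-14709395, plus strand (GRCm38.p6, RefSeq), 78.7 Mb before Mir802, and it has 2 copies in both strains. Hapln1 (chr13:89540529-89611832, plus strand) and Vcan (chr13:89655309-89743027, minus strand) are neighbours that point towards each other, with 43.5 kb and no annotated gene between them. Twist1 lies at chr12:33957671-33959831, plus strand and Postn at chr3:54359267-54391041, plus strand. The other 5 genes are spread over chromosomes 1 (Tgfb2, chr1:186622787-186709697, minus strand), 2 (Bmp2, chr2:133552159-133562896, plus strand), 11 (Tbx2, chr11:85832615-85841948, plus strand, and Sox9, chr11:112782210-112787757, plus strand) and 15 (Has2, chr15:56665627-56694546, minus strand). Genes on the opposite strand overlap exons of Tgfb2, Sox9 and Has2, and how the counting used strand is not given in the sources used here. Their own reads came to 0.0211%, 0.196% and 1.28% of those of Tgfb2, Sox9 and Has2, summed over libraries. Opposite-strand genes that overlap Tbx2 and Postn in a later annotation had no row in the table.

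Promoter sequences (250 bases before to 50 after the start, read 5′ to 3′ on the gene's own strand, from RefSeq, GRCm38.p6) were available for 5 of the 10 genes. Those of Vcan, Hapln1 and Twist1 are printed because these 3 genes varied together from heart to heart, as described further on, and the first start of Postn because Postn ran against them in hearts with a low mitochondrial share. Capitals mark every match, on either strand, to the E-box letters CANNTG, the short Smad letters CAGAC, the Sox letters ACAAT and the TATA box TATAAA. None of these motifs overlaps another in the 4 sequences.
Vcan: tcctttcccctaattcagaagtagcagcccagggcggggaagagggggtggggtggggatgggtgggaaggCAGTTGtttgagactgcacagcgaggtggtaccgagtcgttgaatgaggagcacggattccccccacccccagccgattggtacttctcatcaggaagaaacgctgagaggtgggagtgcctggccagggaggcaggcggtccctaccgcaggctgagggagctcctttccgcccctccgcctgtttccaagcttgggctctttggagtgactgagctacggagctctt
Hapln1: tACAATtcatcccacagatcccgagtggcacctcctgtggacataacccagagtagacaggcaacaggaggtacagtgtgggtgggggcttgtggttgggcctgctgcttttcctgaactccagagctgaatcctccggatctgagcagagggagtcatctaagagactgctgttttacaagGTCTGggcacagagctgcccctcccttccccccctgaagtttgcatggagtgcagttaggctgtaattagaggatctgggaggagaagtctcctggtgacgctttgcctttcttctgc
Twist1: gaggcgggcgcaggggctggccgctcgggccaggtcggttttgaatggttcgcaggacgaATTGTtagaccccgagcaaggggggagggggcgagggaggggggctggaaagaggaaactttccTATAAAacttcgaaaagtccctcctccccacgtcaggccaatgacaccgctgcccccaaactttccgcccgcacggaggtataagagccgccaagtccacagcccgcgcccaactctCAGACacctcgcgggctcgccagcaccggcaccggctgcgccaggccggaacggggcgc
Postn: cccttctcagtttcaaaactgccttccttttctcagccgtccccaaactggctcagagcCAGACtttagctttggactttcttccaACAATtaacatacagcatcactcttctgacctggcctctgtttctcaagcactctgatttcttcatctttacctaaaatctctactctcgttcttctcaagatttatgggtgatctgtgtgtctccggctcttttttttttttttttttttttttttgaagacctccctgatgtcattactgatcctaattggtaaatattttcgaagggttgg
The windows are chr13:89742463-89742762 (minus strand) for Vcan, chr13:89540386-89540685 (plus) for Hapln1, chr12:33957421-33957720 (plus) for Twist1 and chr3:54359017-54359316 (plus) for Postn. The single E-box among them is CAGTTG in Vcan, 179 bases before the start. CAGGTG, the E-box form that Snai2 and Twist1 are known to bind, was absent from the promoters of all 5 genes that could be read and present in 20.2% of 32851 mouse promoters of the same length. CANNTG stood in 72.3% of these promoters, CAGAC in 49.6%, ACAAT in 31% and TATAAA in 13.6%. Hapln1, Twist1 and the first start of Postn each hold 1 CAGAC and 1 ACAAT, and Vcan holds neither. Twist1 had the highest content of G and C (66.0%, 27 CpG pairs) and the first start of Postn the lowest (40%, 4 CpG pairs), against medians of 52.7% and 7 over all promoters. The second start of Postn, with the window chr3:54360857-54361156 (plus), had 53% and 5 CpG pairs. It holds a TATAAA 26 bases before the start and none of the other marked letters. These matches describe the letters in the windows and no binding was measured.

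Compared per kilobase of the longest annotated transcript, the matrix protein genes Postn and Vcan stood at the top of the 10 and Has2 at the bottom. Over the 20 hearts Postn reached 2179 ± 303 normalised read counts per kilobase (mean ± SD), Vcan 968 ± 155, Tgfb2 438 ± 70.3 and Hapln1 307 ± 74.4. Twist1 followed with 208 ± 34.8, Sox9 with 196 ± 32.2 and Snai2 with 166 ± 42.7, and the lowest were Bmp2 (82.7 ± 12.7), Tbx2 (69.6 ± 16.9) and Has2 (57.9 ± 9.22). The lowest heart of Postn was above the highest of Vcan, the lowest of Vcan above the highest of Tgfb2, and the lowest of Snai2 above the highest of Bmp2. The ranges of all other neighbours in this order overlapped. With the median in place of the longest transcript, 6 of the 10 genes kept their place and Vcan, which has splice forms of very different length, stood above Postn.

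**Figure D1:**
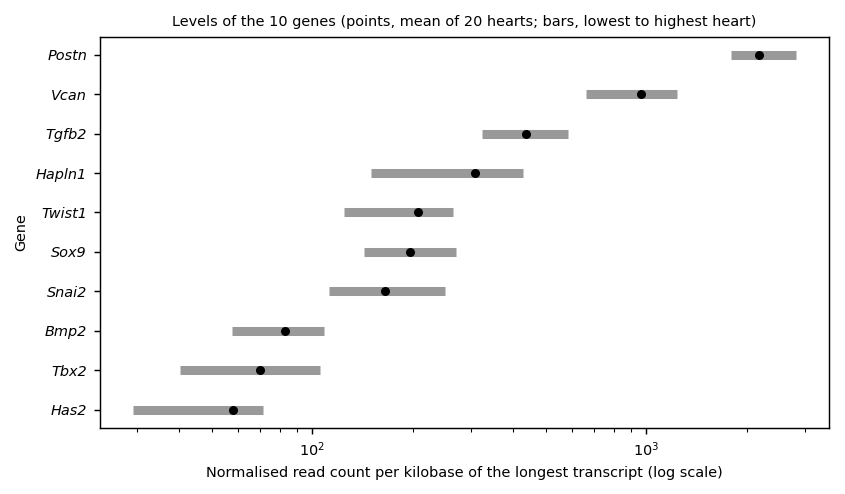
Normalised read count per kilobase of the longest transcript (x axis, log scale) for each of the 10 genes (y axis); points are means of 20 hearts and bars run from the lowest to the highest heart. Postn and Vcan stand clear of the other genes, from 1798 to 2816 and from 659 to 1236, while the bars from Tgfb2 to Snai2 overlap their neighbours.

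No cushion gene passed the test against WT in either strain. By limma on log2(value + 1), with p-values adjusted by Benjamini-Hochberg over all genes tested, 0 of 10 passed a threshold of 0.05 in Dp3Tyb (14763 genes tested, 0.0542% of them called) and 0 of 10 in Ts1Rhr (14867 genes, 0.0269% called). DESeq2 and edgeR on the recovered reads also called 0 of the 10 in each strain, where DESeq2 called 0.23% and 0.168% of all genes and edgeR 0.061% and 0.0269%. At an unadjusted limma p under 0.05 the count was again 0 of 10 in both strains, against 2.8% and 5.52% of all genes. For none of the 10 did the 5 hearts of a strain lie wholly above or below their 5 WT hearts, which 0.975% of genes tested did for Dp3Tyb and 1.12% for Ts1Rhr. The widest 95% interval still ran from 0.781-fold to 1.66-fold in the Dp3Tyb cohort, for Tbx2, and from 0.788-fold to 1.63-fold in the Ts1Rhr cohort, for Hapln1, and the interval of each gene bounds the change that its 5 hearts a group leave possible.

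**Figure D2:**
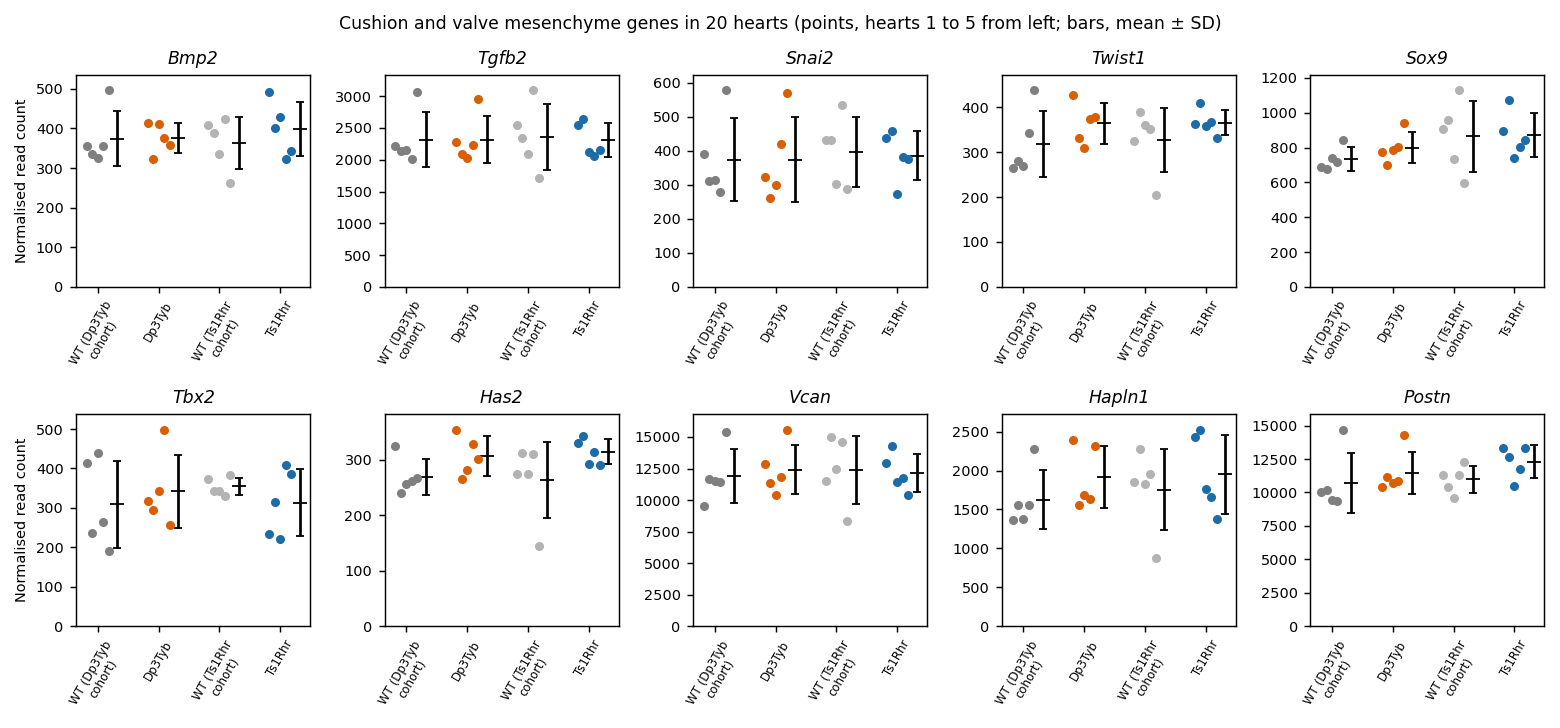
Normalised read count (y axis, from 0) of each gene in the 20 hearts by group (x axis); points are hearts 1 to 5 from left to right and bars are mean ± SD. In every panel the points of a strain overlap those of its WT controls, and heart 5 stands highest in both groups of the Dp3Tyb cohort for Tgfb2, Snai2, Sox9, Vcan and Postn.

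Of the signals, Tgfb2 had nearly the same mean in all groups. Bmp2 differed more in the Ts1Rhr cohort, with a mean of 398 in the strain and 363 in WT. Tgfb2, a TGF-β ligand of the cushion myocardium and mesenchyme, was at 2284, 2095, 2024, 2227 and 2959 normalised read counts in Dp3Tyb hearts 1 to 5 and at 2222, 2131, 2160.0, 2008 and 3071 in their WT controls. Heart 5 was the highest in both groups and the other 8 hearts lay close together. The difference on the log2 scale was 0.00 (SE 0.13, 95% confidence interval -0.29 to 0.29). In the Ts1Rhr cohort Tgfb2 was at 2546, 2648, 2128, 2065 and 2150.3 in the strain and 2544, 2339, 2096, 3093 and 1712 in WT, a difference of -0.01 (SE 0.14, 95% confidence interval -0.31 to 0.29). Here the strain's hearts all lay inside the WT range, and hearts 1 and 2, described as having defects, were its highest; they were also the only Ts1Rhr hearts with over 10% mitochondrial reads (11.6% and 13.1%). Bmp2, the myocardial signal that starts the transition of the endocardium, ranged from 322 to 413 in Dp3Tyb (median 376) and 325 to 496 in WT (median 356), with a difference of 0.02 (SE 0.12, 95% confidence interval -0.25 to 0.29). In Ts1Rhr it ranged from 322 to 492 (median 400.2) against 263 to 423 in WT (median 388), with a difference of 0.13 (SE 0.15, 95% confidence interval -0.19 to 0.45). The intervals for Bmp2 bound a change to between 0.842-fold and 1.22-fold in Dp3Tyb and between 0.879-fold and 1.37-fold in Ts1Rhr.

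Among the transition and mesenchyme factors, Twist1 had the largest difference in Dp3Tyb and Tbx2 in Ts1Rhr, and neither passed the test. Twist1, a basic helix-loop-helix factor of proliferating cushion mesenchyme, was at 427, 331, 309, 374 and 378 in Dp3Tyb and 264, 279, 268, 342 and 437 in WT, which gave 0.21 (SE 0.15, 95% confidence interval -0.11 to 0.54). Each of the 5 Dp3Tyb hearts was above the 3 lowest WT hearts, and WT heart 5 was above all of them. In Ts1Rhr it was at 363, 410.0, 358, 367 and 331 against 325, 388, 361, 350.3 and 205, or 0.20 (SE 0.15, 95% confidence interval -0.13 to 0.52). All 5 Ts1Rhr hearts exceeded the WT mean, but without WT heart 5, the lowest of the 20, the difference was 0.04. Snai2, the zinc finger repressor of endothelial contacts in the transition, ranged from 261 to 571 in Dp3Tyb and 279 to 578 in WT, and from 273 to 459.8 in Ts1Rhr and 287 to 534 in WT. Its log2 differences were -0.01 (SE 0.24) and -0.03 (SE 0.18), the least precise of the 10 in Dp3Tyb after Tbx2.

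Sox9, needed for cushion mesenchyme to expand and for valve matrix to form, was at 800.3 ± 87.1 (mean ± SD, n = 5) in Dp3Tyb and 734 ± 67.1 in WT. This was a log2 difference of 0.12 (SE 0.09, 95% confidence interval -0.07 to 0.32), with 1 Dp3Tyb heart above the highest WT heart. In the Ts1Rhr cohort the values were 871 ± 127 and 864 ± 206, a difference of 0.03 (SE 0.16, 95% confidence interval -0.31 to 0.37). Tbx2, a T-box repressor that keeps chamber genes off in the atrioventricular canal, was at 318, 296, 343, 499 and 257 in Dp3Tyb and 413, 237, 439, 265 and 191 in WT. The estimate was 0.19 (SE 0.25, 95% confidence interval -0.36 to 0.73), and the spread within each group was larger than the difference. In Ts1Rhr Tbx2 was at 235, 314, 221, 409 and 387, against 374, 344, 344, 331 and 382 in WT. Here 3 of the 5 Ts1Rhr hearts were below the lowest WT heart and 2 above the highest, which gave -0.22 (SE 0.16, 95% confidence interval -0.57 to 0.13).

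Of the 4 matrix genes, all 4 were on the higher side of WT in Dp3Tyb and 3 in Ts1Rhr, with none past the test. Has2, the synthase that makes cushion hyaluronan, was at 354, 264, 282, 329 and 301 in Dp3Tyb and 325, 239, 257, 261 and 267 in WT, 0.18 (SE 0.11, 95% confidence interval -0.05 to 0.42). WT heart 1 was above 3 of the Dp3Tyb hearts, and the 2-sided exact permutation p was 0.111. In Ts1Rhr Has2 was at 329, 343, 293, 314 and 291, and in WT at 274, 312, 274, 310.1 and 145. All 5 Ts1Rhr hearts were above the WT mean and 3 above the highest WT heart, a difference of 0.30 (SE 0.18, 95% confidence interval -0.09 to 0.70) or 1.23-fold (95% confidence interval 0.938 to 1.62), with an exact permutation p of 0.0952. WT heart 5 was far below the rest, and without it the log2 difference was 0.10. This heart also had the highest summed level of 9 erythroid markers, 245352 normalised read counts against 67514 to 172608 in the other 4 WT hearts of its cohort, and the part of blood RNA in its values was not tested. Without Ts1Rhr hearts 1 and 2 it was 0.24.

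Vcan, the large chondroitin sulphate proteoglycan of the cushion gel, was at 12864, 11365, 10423, 11859 and 15588 in Dp3Tyb and 9541, 11639.8, 11518, 11418 and 15423 in WT, 0.06 (SE 0.14, 95% confidence interval -0.24 to 0.37). Its hearts overlapped throughout, as they did in the Ts1Rhr cohort, with 12939, 14286, 11420.3, 11776 and 10366 in the strain and 11489, 14984, 12496, 14588 and 8312 in WT. That difference was 0.00 (SE 0.15, 95% confidence interval -0.33 to 0.32), or 0.998-fold (95% confidence interval 0.798 to 1.25). Hapln1, the link protein that ties hyaluronan to versican, was at 2394, 1559.5, 1688, 1631 and 2315 in Dp3Tyb and 1363, 1552, 1371, 1561 and 2275 in WT. Dp3Tyb hearts 1 and 5 were above every WT heart, the other 3 lay among them, and the difference was 0.24 (SE 0.17, 95% confidence interval -0.13 to 0.61). In Ts1Rhr Hapln1 was at 2428, 2526, 1766, 1654 and 1373 against 1847, 2271, 1823, 1958 and 882, 0.18 (SE 0.24, 95% confidence interval -0.34 to 0.70). Hearts 1 and 2 gave the 2 highest values of the strain. Without them the difference was -0.08, and without WT heart 5 it was -0.05.

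Postn, which encodes the valve and fibroblast matrix protein periostin, was at 10410.0, 11154, 10693, 10865 and 14269 in Dp3Tyb and 10015, 10154, 9409.9, 9388 and 14706 in WT, 0.11 (SE 0.13, 95% confidence interval -0.19 to 0.41). All 5 Dp3Tyb hearts were above 4 of the 5 WT hearts, and WT heart 5 was the highest of all 10. In Ts1Rhr it was at 13356, 12663, 10476, 11740.3 and 13342 and in WT at 11281, 10385, 9621, 11329 and 12318, a difference of 0.16 (SE 0.09, 95% confidence interval -0.03 to 0.36) with an exact permutation p of 0.0952. Here 3 of the 5 Ts1Rhr hearts exceeded every WT heart.

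**Figure D3:**
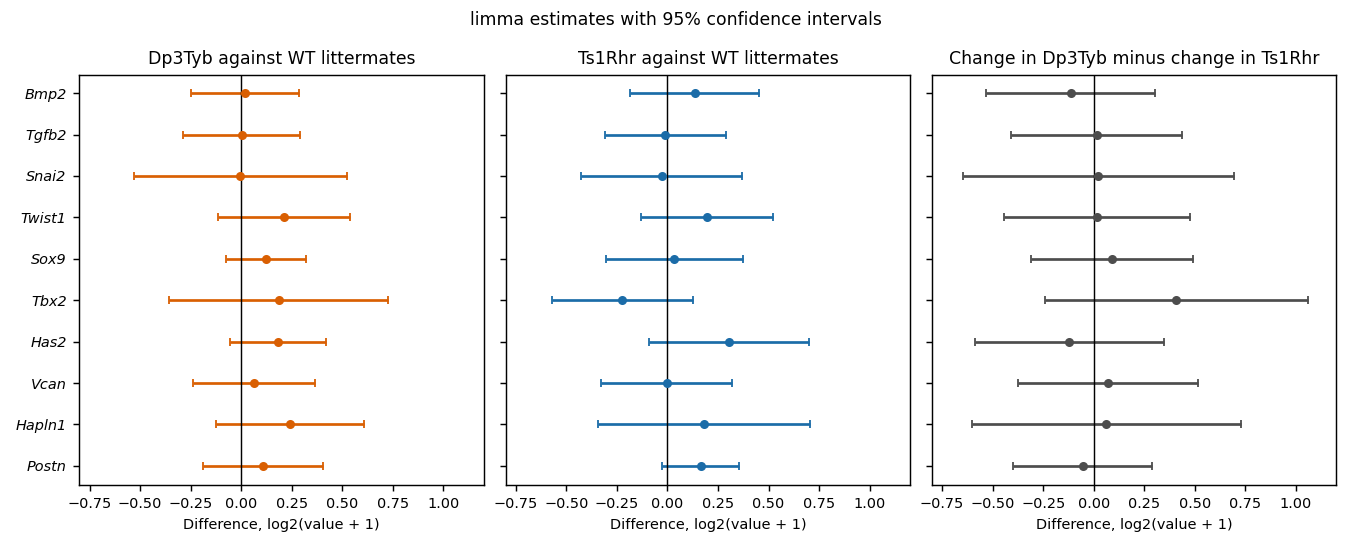
Differences estimated by limma (x axis, log2(value + 1)) with 95% confidence intervals for the 10 genes (y axis): Dp3Tyb against WT, Ts1Rhr against WT, and the first difference minus the second. Every interval includes 0, and those of Tbx2 and Snai2 are among the widest.

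As a group, 9 of the 10 genes had a log2 difference above 0 in Dp3Tyb and 6 of 10 in Ts1Rhr, where 48.9% and 49.6% of all genes tested did. The median difference of the 10 was 0.12 in Dp3Tyb and 0.08 in Ts1Rhr, beside 0.00 over all genes in both. The 10 genes share hearts and move together, so they are not 10 separate observations. The median in Ts1Rhr turned to -0.08 without hearts 1 and 2 and to -0.07 without WT heart 5, and in Dp3Tyb it was 0.05 without Dp3Tyb heart 5 and 0.17 without WT heart 5. With the mitochondrial share as a covariate in the limma model, all 10 genes were on the higher side in Dp3Tyb (median 0.13, with 48.6% of all genes higher) and 9 of 10 in Ts1Rhr (median 0.18, with 48.7%). In that model Postn (0.12, SE 0.04), Sox9 (0.13, SE 0.05) and Hapln1 (0.26, SE 0.11) had an unadjusted p under 0.05 in Dp3Tyb, where 11% of all genes did. In Ts1Rhr these were Has2 (0.41, SE 0.15), Postn (0.18, SE 0.08), Sox9 (0.17, SE 0.07) and Bmp2 (0.23, SE 0.11), beside 7.53% of all genes. The adjusted limma p of all 10 stayed above 0.05 under this covariate in both strains, where 0.305% and 0.168% of genes were called. Without the 7 libraries over 10% mitochondrial reads, which left 8 hearts for Dp3Tyb with its WT and 5 for Ts1Rhr with its WT (3 of the strain and WT hearts 3 and 5), 9 of 10 were higher in each strain (medians 0.13 and 0.23, beside 49.6% and 50.3% of all genes). There Postn (0.15, SE 0.04) and Twist1 (0.32, SE 0.11) in Dp3Tyb and Has2 (0.58, SE 0.24) and Sox9 (0.26, SE 0.11) in Ts1Rhr had an unadjusted limma p under 0.05, which 8.06% and 3.56% of all genes had. WT hearts 3 and 5 of the Ts1Rhr cohort were at 274 and 145 for Has2, the latter the lowest of the 20 hearts. Again 0 of 10 passed after adjustment, with 0.206% and 0% of genes called.

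The change in Dp3Tyb was compared with that in Ts1Rhr by an interaction term over all 20 hearts, and 0 of 10 genes differed between the strains by limma (15348 genes tested, 0.013% called), DESeq2 (0.0195%) or edgeR (0.013%). None had an unadjusted limma p under 0.05 (1.52% of all genes did), and 7 of 10 estimates were above 0 (50.4% of all genes). This count turned to 2 of 10 with the mitochondrial share as a covariate (median -0.05) and to 2 of 10 without the 7 libraries over 10% (median -0.10). It was 9 of 10 without Ts1Rhr hearts 1 and 2 (median 0.16) and between 3 and 8 of 10 with 1 library left out at a time. Tbx2 had the largest estimate, 0.41 (SE 0.31, 95% confidence interval -0.24 to 1.06), being on the higher side of WT in Dp3Tyb and on the lower side in Ts1Rhr. With the lung and foregut markers as a covariate, the Tbx2 estimate was -0.23 (SE 0.19), and its sign turned in both strains. Without that covariate the other 9 estimates lay between -0.12 for Has2 and 0.09 for Sox9. The WT hearts of the cohorts were compared directly as well, since litters and handling cannot be told apart from cohort. Again 0 of 10 passed limma or edgeR (14779 genes tested, 0% called by either) or DESeq2 (0.108% called), 0 of 10 had an unadjusted limma p under 0.05 (4.58% of genes did) and none was without overlap (1% of genes were). The Ts1Rhr cohort was the higher for 8 of 10, beside 50.5% of all genes, but it held 3 of the 4 WT hearts with over 10% mitochondrial reads. It was the higher for 2 of 10 with that share as a covariate (median -0.06) and for 2 of 10 without these hearts (median -0.11), and between 4 and 10 of 10 with 1 library left out at a time. The largest WT differences, taken as Ts1Rhr cohort minus Dp3Tyb cohort, were those of Tbx2, 0.27 (SE 0.21, 95% confidence interval -0.18 to 0.73), and Sox9, 0.21 (SE 0.15, 95% confidence interval -0.13 to 0.54). They were as large as or larger than the differences of these genes between either strain and its WT.

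In the wider set of cushion genes none passed after adjustment either. Of 102 listed partners of the 10 genes, 100 were tested in Dp3Tyb and 99 in Ts1Rhr, and limma and DESeq2 each called 0 in both strains and 0 between the strains (over all genes limma called 0.0542% in Dp3Tyb, 0.0269% in Ts1Rhr and 0.013% between the strains, and DESeq2 0.23%, 0.168% and 0.0195%). An unadjusted limma p under 0.05 was found for 5 of 100 in Dp3Tyb (2.8% of all genes) and 5 of 99 in Ts1Rhr (5.52%). Between the strains it was found for 1 of 100 (1.52% of all genes). In Dp3Tyb 68 of 100 were above 0 on the log2 scale (48.9% of all genes), with a median of 0.07, and in Ts1Rhr 60 of 99 (49.6% of all genes), with a median of 0.04. Of 30 signals, receptors and Smads, 20 were higher in Dp3Tyb and 16 in Ts1Rhr, beside the same shares of all genes. The best expressed per kilobase were Bmpr1a, the type I receptor for Bmp2, with -0.07 (SE 0.11) in Dp3Tyb and -0.15 (SE 0.07) in Ts1Rhr, Bmp10, a ligand of trabecular muscle, with 0.02 (SE 0.17) and 0.07 (SE 0.13), and Bmp7, a myocardial ligand, with -0.11 (SE 0.11) and -0.06 (SE 0.12). Of 27 transition and mesenchyme factors, 16 and 11 were higher. Here Cdh2, which encodes N-cadherin, gave -0.12 (SE 0.15) and -0.11 (SE 0.09), the T-box factor gene Tbx20 gave -0.10 (SE 0.08) and 0.00 (SE 0.07), and Sox4, another factor of cushion mesenchyme, gave 0.01 (SE 0.06) and -0.06 (SE 0.08).

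Of the hyaluronan and versican system, 17 of 19 listed genes were tested in Dp3Tyb and 16 in Ts1Rhr, and 13 and 11 of them were higher. Cemip2, a cell surface hyaluronidase, gave 0.01 (SE 0.09) and 0.11 (SE 0.09), Hmmr, the hyaluronan receptor of dividing cells, -0.15 (SE 0.21) and -0.22 (SE 0.15), and Adamts1, a protease that cuts versican, -0.03 (SE 0.07) and -0.05 (SE 0.08). The valve and cushion matrix list had 19 of 26 genes higher in Dp3Tyb and 22 of 26 in Ts1Rhr (48.9% and 49.6% of all genes), with medians of 0.11 in both. Its best expressed genes were Sparc, a collagen-binding matrix protein, with 0.09 (SE 0.06) and 0.11 (SE 0.07), and the fibrillar collagen genes Col3a1, with 0.23 (SE 0.15) and 0.13 (SE 0.15), and Col1a1, with 0.37 (SE 0.22) and 0.12 (SE 0.19). With the lung and foregut covariate Col3a1 was at 0.04 (SE 0.10) in Dp3Tyb and 0.31 (SE 0.15) in Ts1Rhr, and Col1a1 at 0.07 (SE 0.14) and 0.38 (SE 0.16), so that Ts1Rhr then had the larger estimate of both. No listed gene lies in the duplicated segments.

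The levels of several cushion genes moved with the mitochondrial share of a library. The shares fell apart into 13 hearts with at most 7.17% and 7 with 10.5% or more, and the latter came from all 4 groups (1 and 1 in the Dp3Tyb cohort, 3 WT and 2 Ts1Rhr hearts in the other). Tgfb2 ran from 2339 to 3093 in these 7 hearts and from 1712 to 2284 in the other 13, without overlap. Snai2 was also without overlap, 432 to 578 against 261 to 419.8, and Sox9 overlapped by 1 pair of hearts only, 846 to 1129 against 596 to 846. Vcan (11489 to 15588 against 8312 to 12864), Hapln1 (1847 to 2526 against 882 to 2394), Postn (10385 to 14706 against 9388 to 13342), Bmp2 (358 to 496 against 263 to 429.8) and Twist1 (325 to 438 against 205 to 427) overlapped, with the higher median in the 7 hearts. Has2 had medians of 310.1 and 282, and Tbx2 the opposite order, 314 and 344. The share of all genes without overlap between the 7 and the 13 hearts was not computed. These ranges therefore do not set the cushion genes apart from other genes. The 7 libraries also held fewer reads on the whole, with a median of 13595247 against 17987138, and the part of depth or of RNA quality in these levels was not tested. Within the 13 hearts, with levels and shares centred on their group means, no relation to the mitochondrial share held after adjustment over the 20 relations computed within such ranges. The closest were Vcan (r = 0.601, permutation p = 0.03, adjusted p = 0.257; rho = 0.516, permutation p = 0.0744, adjusted p = 0.707) and Hapln1 (r = 0.575, permutation p = 0.0385; rho = 0.451, permutation p = 0.125). Over all 20 hearts, where it spans the gap between the sets, the relation passed for 9 of the 10 genes by r and for 7 by rho (permutation tests, each adjusted over 20 relations). Of the 9, Tbx2 had a negative r (-0.529). Without the 2 hearts farthest from the median centred share, r was -0.264 for Tbx2 and 0.406 for Postn, against 0.758 for Postn over all 20. The test was not run over all genes, so these counts do not set the cushion genes apart.

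**Figure D4:**
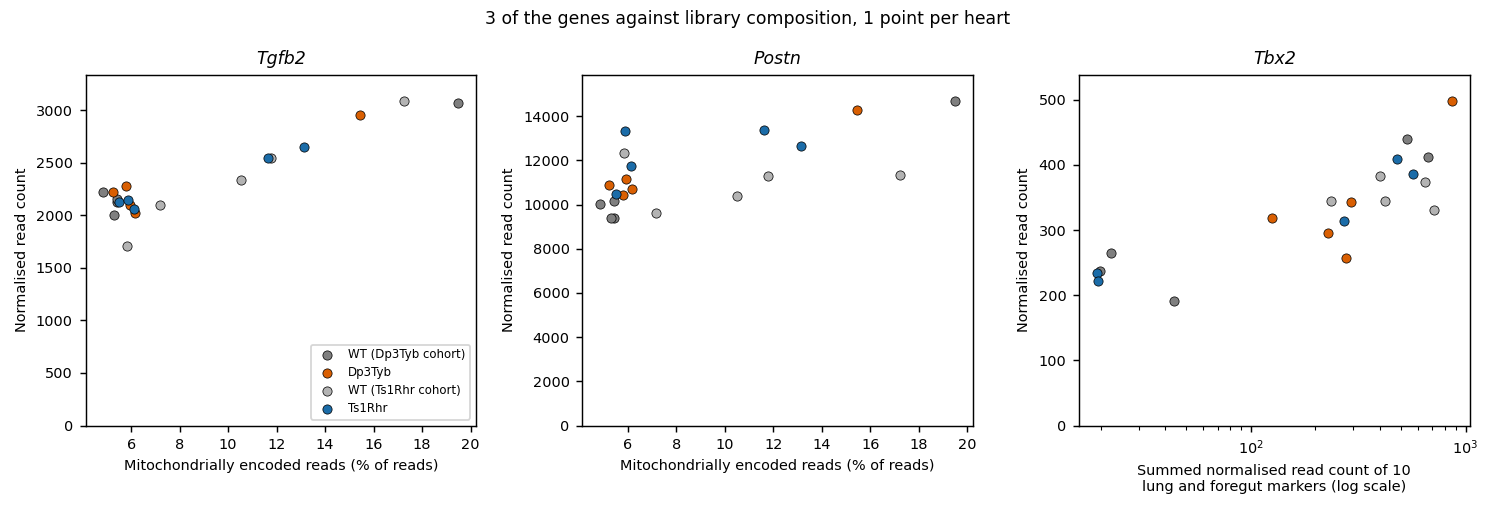
Normalised read counts (y axes, from 0) of Tgfb2 and Postn against the share of mitochondrially encoded reads (x axis, % of reads) and of Tbx2 against the summed level of 10 lung and foregut markers (x axis, log scale), 1 point per heart and 1 colour per group. Tgfb2 is higher in each of the 7 hearts with over 10% mitochondrial reads than in any of the other 13, and Tbx2 is lowest in the hearts with the least marker RNA.

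Tbx2 varied with the markers of tissue next to the heart. In the 5 hearts whose lung and foregut markers summed to less than 50 (WT hearts 2, 4 and 5 of the Dp3Tyb cohort and Ts1Rhr hearts 1 and 3) it ran from 191 to 265, and in the other 15 from 257 to 499. The groups of hearts so formed overlapped by 1 pair. Among the 15, centred on group means, r was 0.634 (permutation p = 0.0162, adjusted over 20 relations 0.257) and rho 0.464 (permutation p = 0.0825), so the relation did not pass within that range. Over all 20 hearts it passed (adjusted permutation p = 5e-05). The summed marker level ran from 19.8 to 668 in WT and 126 to 863 in Dp3Tyb, and from 235 to 710 in WT and 19.2 to 566 in Ts1Rhr. All 9 markers of the list that were tested were above 0 in Dp3Tyb (median log2 difference 1.93) and below 0 in Ts1Rhr (median -1.76), the same directions as Tbx2, with none called by limma. With the level of these markers as a covariate the difference in Tbx2 was -0.16 (SE 0.16) in Dp3Tyb and 0.05 (SE 0.10) in Ts1Rhr, opposite in sign to those without it. The difference between the strains likewise went from 0.41 to -0.23 (SE 0.19). Over the 20 hearts Tbx2 ran with the markers of cartilage (r = 0.87), neural crest and Schwann cells (0.88), smooth muscle (0.69) and macrophages (0.68). It ran against those of cardiomyocytes (-0.86). These values are a description of marker RNA, and whether the libraries held unequal amounts of these tissues was not tested. In the 13 hearts with at most 10% mitochondrial reads Snai2 also ran with the lung and foregut markers (r = 0.752). Its r there was 0.837 with neural crest and Schwann cell markers, 0.806 with smooth muscle, 0.686 with cartilage and 0.605 with macrophage markers. With those of cardiomyocytes it was -0.876 and with those of endothelium and endocardium -0.649. Over all 20 hearts the r of Snai2 with the lung and foregut markers was 0.183.

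Among themselves, the 10 genes mostly rose and fell together from heart to heart. The correlations that follow are over hearts with log2 levels centred on the group mean, are given as a description without p, and share library and mitochondrial share. Over 20 hearts 36 of 45 pairs had r above 0, 29 had r above 0.5 and the median was 0.602. The same counts were not taken over pairs of all genes, so they do not set the cushion genes apart. In the 13 hearts with at most 10% mitochondrial reads the median was 0.436 and 31 pairs were above 0. The group of Vcan, Hapln1 and Twist1 stayed close in both sets: r was 0.903 and 0.863 for Vcan and Hapln1, 0.87 and 0.894 for Twist1 and Hapln1, and 0.859 and 0.883 for Twist1 and Vcan. With 1 heart left out at a time, the lowest of these was 0.659, for Vcan and Hapln1 without WT heart 3 of the Ts1Rhr cohort.

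Tgfb2 and Snai2 correlated at 0.885 over all hearts and at 0.403 in the 13, and Tgfb2 and Sox9 at 0.88 and 0.559, the latter falling to 0.104 without WT heart 3 of the Ts1Rhr cohort. Has2 and Tgfb2 had r = 0.864 in the 13 hearts and 0.571 over all 20. Single hearts moved both values, to 0.659 in the 13 without WT heart 3 and to 0.317 over all without WT heart 5, both of the Ts1Rhr cohort. Postn had a negative r with the versican group in the 13 hearts. Its r there was -0.794 with Hapln1, -0.719 with Vcan and -0.701 with Twist1, against 0.201, 0.329 and 0.156 over all 20. Without WT heart 3 of the Ts1Rhr cohort, which left its cohort's WT group with heart 5 alone among the 13, these were -0.581, -0.428 and -0.387. The values over all 20 rested on single hearts as well, and without WT heart 5 of the Dp3Tyb cohort they were -0.081, 0.049 and -0.331, and without WT heart 5 of the Ts1Rhr cohort 0.506, 0.613 and 0.451. Within the cohorts they were opposite in sign, 0.712, 0.814 and 0.605 over the 10 hearts of Dp3Tyb and its WT against -0.294, -0.313 and -0.519 over those of Ts1Rhr and its WT. In the 13 hearts Postn had r = 0.813 with 4 fibroblast markers, with which Hapln1 had -0.825. Tbx2 had a negative r with 8 of the other 9 genes over all hearts, and r = 0.806 with Snai2 in the 13 hearts against -0.135 over all, or 0.115 without WT heart 5 of the Dp3Tyb cohort.

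**Figure D5:**
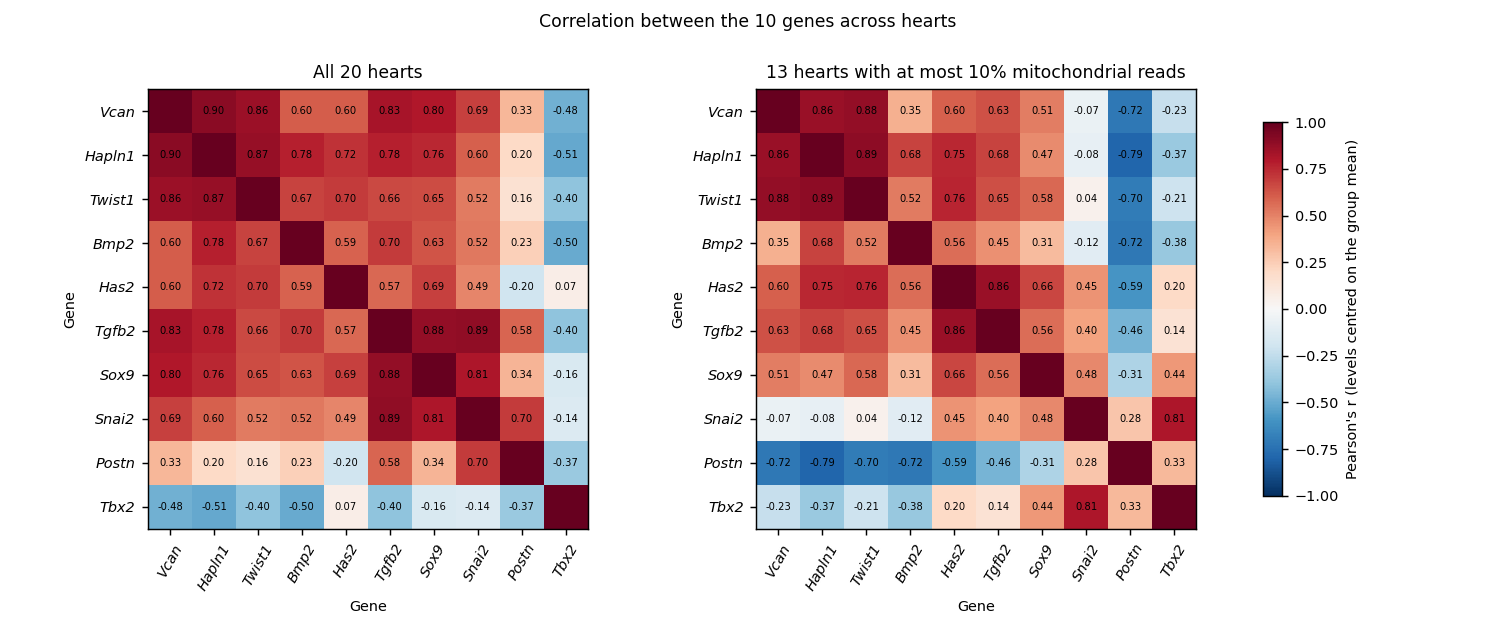
Pearson's r between each pair of the 10 genes (both axes) over all 20 hearts and over the 13 hearts with at most 10% mitochondrial reads, with levels centred on the group mean; colour runs from -1 to 1. Vcan, Hapln1 and Twist1 form a block of high r in both panels, whereas Postn is negative against them in the second and near or above 0 in the first, where its values rest on single hearts.

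Of 15217 genes compared over the 20 hearts, those closest to a member were mostly not members. Closest to Hapln1 were Car3 (r = 0.971, n = 20 hearts), AI506816 (0.937) and Igf2os (0.936), and Vcan came in place 22. Closest to Vcan were Dicer1 (0.951), Huwe1 (0.944) and Ep300 (0.941), and Hapln1 was in place 44. Twist1 had Polq (0.890), Lpgat1 (0.888) and Slc25a24 (0.874), and Hapln1 was in place 5, the nearest that any member came to another. For Tgfb2 these were Brd3 (0.983), Cdk11b (0.978) and Polr2a (0.973), for Snai2 Fnbp1l (0.968), Pds5b (0.964) and Srp72 (0.962), and for Sox9 Zfp362 (0.951), Bicra (0.935) and Baz1b (0.933). Bmp2 was closest to Nxf1 (0.864), Stk38l (0.851) and Ppat (0.850), and Has2 to Wdr75 (0.907), Rbm12 (0.883) and Jpt2 (0.883). Postn was closest to Poglut3 (0.933), Aspn (0.930), which encodes the matrix proteoglycan asporin, and Kansl1l (0.921). Tbx2 was closest to D430019H16Rik (0.965), Arhgap28 (0.937) and Col11a2 (0.936), a collagen gene of cartilage, and its nearest member was Has2 in place 7300.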

How the data were processed

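Each of 20 libraries (poly(A)-selected mRNA of whole E13.5 hearts, Illumina HiSeq) was grouped by its genotype label. The authors deposited 1 table of normalised values per gene, a signal in which reads are divided by a library's size factor; the submitters' processing notes name Trimmomatic 0.36, STAR 2.5.2a, RSEM 1.2.31, DESeq2 and GRCm38. Multiplied by the recovered factors, 100% of values were whole reads within 0.001, and no column was left out. Symbols were matched to 44565 of 48795 Ensembl identifiers (91.3%) with GENCODE vM39. Strains were compared with their own WT hearts by limma 3.58.1 (trended, robust) on log2(value + 1), among genes at 10 or more in at least 5 of the libraries fitted. DESeq2 1.42.0 and edgeR 4.0.16 were run on the recovered reads. These fits were tested on simulated data. A fold on the log2(value + 1) scale understates changes of low genes. Exact permutation tests were 2-sided. The 20 relations with library composition used 100000 permutations, and the splits of the hearts used there were chosen after seeing the data. In pairs of libraries of 1 group the reads differed by more than sampling noise (chi-square per gene 3.90 to 139). The members and the lists were chosen with earlier results of these data known. Genes named are the 10 members, of each partner list the 3 highest per kilobase plus any called by limma or DESeq2, and for each member the 3 genes closest by r. Other scalings, pseudocounts, filters, covariates and left-out libraries were tried as alternatives.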

Additional observations from a re-analysis of the deposited data

Results flagged for a closer look

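In 7 of the 40 sets of 5 hearts (10 genes in 4 groups), 1 heart stood far from the other 4, by Dixon's criterion, which chance meets in about 1 of 20 sets. The genes share hearts, so the 40 sets are not separate observations. The same count was not taken over all genes, so it does not set the cushion genes apart. WT heart 5 of the Dp3Tyb cohort was the highest for Bmp2 (496 normalised read counts, next 357), Tgfb2 (3071, next 2222), Hapln1 (2275, next 1561) and Postn (14707, next 10154). Dp3Tyb heart 5 was the highest for Tgfb2 (2959, next 2284) and Postn (14269, next 11155). These 2 hearts had 19.5% and 15.5% mitochondrial reads, the highest shares of their groups, and the part of that share in the levels was not tested. WT heart 5 of the Ts1Rhr cohort was the lowest for Has2 (145, next 274), with 5.84% mitochondrial reads.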

How the results depend on the processing

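No member passed limma under any alternative, or the single DESeq2 and edgeR fits, in either strain or between the strains. The exception lay between the WT groups, where 1 member, Sox9, passed with array weights, a setting that called 3284 genes there. With the median transcript length 6 of 10 genes kept their place in the order of levels, and without the 7 libraries over 10% mitochondrial reads the median r of the pairs was 0.436. The members' median log2 difference with 1 library left out ran from 0.05 to 0.17 in Dp3Tyb, -0.07 to 0.16 in Ts1Rhr, -0.05 to 0.15 between the strains and -0.01 to 0.18 between the WT groups. All genes called by limma in Dp3Tyb were 8, against 34 under DESeq2, 57 with array weights, 45 with the mitochondrial covariate, 1 with the lung and foregut covariate, 30 without the 7 libraries, 17 in a fit of all 20, 4 unfiltered and 2 to 13 with 1 library left out. In Ts1Rhr they were 4, against 25, 16, 25, 0, 0, 11, 4 and 1 to 6. Between the strains 2 were called, against 0 to 3 in these settings, and between the WT groups 0 by limma (677 at an unadjusted p under 0.05), 16 by DESeq2, 0 by edgeR and 0 to 9 with 1 library left out. The 677 ran from 340 without WT heart 4 of the Dp3Tyb cohort to 3933 without its WT heart 5. No paired analysis was possible because the labels give no replicate numbers and do not say which hearts share a litter. The signs that follow are of log2 differences that passed no test, and the cause was not tested. Under DESeq2, the sign turned in Dp3Tyb Snai2 0.0082. Under edgeR, the sign turned in Dp3Tyb Snai2 0.027. Under TMM scaling, the sign turned in Dp3Tyb Tgfb2 -5.7e-05, and in Ts1Rhr Tgfb2 0.00012, Vcan 0.0069. With array weights, the sign turned in Ts1Rhr Bmp2 -0.039, Sox9 -0.020, Hapln1 -0.11, and between the strains Bmp2 0.15, Snai2 -0.025, and between the WT groups Bmp2 0.11, Has2 0.074. With the lung and foregut covariate, the sign turned in Dp3Tyb Tbx2 -0.16, and in Ts1Rhr Tgfb2 0.0011, Snai2 0.084, Tbx2 0.054, and between the strains Bmp2 0.065, Snai2 -0.11, Tbx2 -0.23, and between the WT groups Bmp2 0.0098, Tbx2 -0.13. With the mitochondrial covariate, the sign turned in Dp3Tyb Snai2 0.020, and in Ts1Rhr Tgfb2 0.11, Snai2 0.12, Vcan 0.096, and between the strains Tgfb2 -0.065, Snai2 -0.092, Twist1 -0.038, Vcan -0.0014, Hapln1 -0.032, and between the WT groups Tgfb2 -0.10, Snai2 -0.059, Twist1 -0.073, Vcan -0.055, Hapln1 -0.057, Postn -0.019. Without the 7 libraries over 10% mitochondrial reads, the sign turned in Ts1Rhr Tgfb2 0.16, Snai2 0.20, Vcan 0.13, and between the strains Tgfb2 -0.14, Snai2 -0.20, Twist1 -0.050, Sox9 -0.15, Vcan -0.056, Hapln1 -0.029, Postn 0.031, and between the WT groups Tgfb2 -0.17, Snai2 -0.12, Twist1 -0.075, Sox9 -0.093, Vcan -0.11, Hapln1 -0.20. Without Ts1Rhr hearts 1 and 2, the sign turned in Ts1Rhr Sox9 -0.087, Hapln1 -0.077, and between the strains Bmp2 0.0026, Postn 0.0011. With 1 library left out at a time, the log2 differences in Dp3Tyb ran for Bmp2 from -0.027 to 0.13, for Tgfb2 from -0.088 to 0.11, for Snai2 from -0.17 to 0.16, for Twist1 from 0.15 to 0.33, for Sox9 from 0.063 to 0.17, for Tbx2 from 0.031 to 0.33, for Has2 from 0.13 to 0.25, for Vcan from -0.021 to 0.16, for Hapln1 from 0.16 to 0.37, for Postn from 0.028 to 0.23. In Ts1Rhr they ran for Bmp2 from 0.022 to 0.21, for Tgfb2 from -0.12 to 0.095, for Snai2 from -0.14 to 0.091, for Twist1 from 0.038 to 0.27, for Sox9 from -0.091 to 0.14, for Tbx2 from -0.33 to -0.11, for Has2 from 0.10 to 0.38, for Vcan from -0.14 to 0.073, for Hapln1 from -0.052 to 0.30, for Postn from 0.12 to 0.22. Between the strains they ran for Bmp2 from -0.19 to -0.0030, for Tgfb2 from -0.091 to 0.12, for Snai2 from -0.14 to 0.19, for Twist1 from -0.055 to 0.17, for Sox9 from -0.017 to 0.21, for Tbx2 from 0.25 to 0.55, for Has2 from -0.20 to 0.081, for Vcan from -0.017 to 0.20, for Hapln1 from -0.054 to 0.29, for Postn from -0.14 to 0.064. Between the WT groups they ran for Bmp2 from -0.10 to 0.067, for Tgfb2 from -0.092 to 0.12, for Snai2 from -0.015 to 0.27, for Twist1 from -0.042 to 0.19, for Sox9 from 0.10 to 0.33, for Tbx2 from 0.12 to 0.42, for Has2 from -0.15 to 0.12, for Vcan from -0.034 to 0.18, for Hapln1 from -0.038 to 0.30, for Postn from 0.0075 to 0.17.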
